A study of Mus musculus with 17 samples.

Results

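Matrix metalloproteases, the ADAM sheddases and their tissue inhibitors were examined in synovial macrophages as a set of 9 genes picked by symbol, namely Mmp2, Mmp9, Mmp14 and Mmp19, the inhibitors Timp1, Timp2 and Timp3, and the sheddases Adam8 and Adam17. All 9 were found among the 22859 genes of the count table, and all 9 passed the filter on low counts that left 15272 genes for testing. Total RNA of macrophages sorted from digested mouse synovium, the membrane that lines the joint, had been sequenced in 17 bulk libraries. The cells were LYVE1+CX3CR1+ lining macrophages, MHCII+CD11c- macrophages and MHCII+CD11c+ mononuclear phagocytes, as the study's gating defines the short label names. Each subset was taken from control mice and from mice culled 8 h after intravenous immune complexes (IC, ovalbumin bound by anti-ovalbumin IgG), with 3 libraries per group except 2 for MHCII+CD11c+ cells after IC. Every mouse, controls included, was an adult Fcgr2b-KO animal and so lacked the inhibitory Fc receptor for IgG, and what the control animals received is given only as control or healthy. The labels do not say which or how many animals gave a library, so each p-value measures the spread between these libraries.

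Total counts ranged from 2301913 to 7248939 per library. The LYVE1+CX3CR1+ libraries after IC held 2301913 to 3348248, fewer than the 3669763 to 7248939 of their controls. The 5 MHC class II genes summed to 21.7 to 157 CPM (counts scaled to library size) in LYVE1+CX3CR1+ libraries and to at least 11190 CPM in every MHCII+ library, and Itgax (CD11c) reached 275 to 443 CPM in MHCII+CD11c+ libraries against 16.1 CPM or less elsewhere. The 5 markers of the LYVE1+CX3CR1+ side (Lyve1, Cx3cr1, Timd4, Folr2 and Vsig4) separated the subsets less. They summed to 3552 to 6516 CPM in lining macrophages, 988 to 3293 CPM in MHCII+CD11c- and 57.5 to 581 CPM in MHCII+CD11c+ libraries. Between the first pair of these subsets 0 of 5 were called in either condition, beside 1.56% of all genes in controls and 5.54% after IC. Mean Lyve1 was 2083 CPM in MHCII+CD11c- cells after IC and 1955 CPM in control lining macrophages. Of 7 general macrophage markers 6 were called lower and 1 higher in MHCII+CD11c+ than in lining controls, beside 7.83% and 7.4% of all genes. After IC 3 were called lower and 1 higher, beside 3.52% and 8.42%. Control library 2 of both MHCII+ subsets stood apart from libraries 1 and 3 of its group, with a chi-square per degree of freedom of 27.7 to 39.2 against 11.8 and 12.1 between libraries 1 and 3. Pairs in the other groups ranged from 6.77 to 29.5, with MHCII+CD11c- IC libraries 1 and 3 the farthest apart. Results that rest on the second control libraries are given without them below. CPM values were scaled by TMM, and a floor of 3 counts corresponded to 0.42 to 1.24 CPM on that scale and covers counting error only.

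Matrix metalloproteases are zinc enzymes that are made as inactive precursors and cut collagens, gelatin and other matrix proteins once their propeptide is removed. MMP2 and MMP9 are the gelatinases, MMP14 is a membrane-bound collagenase that also activates proMMP2, and MMP19 is a secreted protease of broad specificity. The TIMP proteins bind the active site of these enzymes, and TIMP2 in addition bridges proMMP2 to MMP14 at the cell surface while TIMP3 is held in the matrix and inhibits ADAM17. ADAM17 releases membrane-bound TNF and many receptors from the cell surface, ADAM8 is a sheddase of myeloid cells, and in inflamed joints proteases of this kind take part in the loss of cartilage. The libraries report transcripts only, so neither activation nor inhibition of a protein was measured.

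Timp2 was by far the most abundant of the 9 transcripts in lining macrophages, whereas Adam8 and Mmp19 came to the fore in MHCII+CD11c+ cells. Per kilobase of exon, Timp2 made up 92.5% of the summed level of the 9 genes in controls of the LYVE1+CX3CR1+ subset and 93.9% after IC. Its share was 73.1% in MHCII+CD11c- control cells and 60.7% after IC, followed by Mmp9 at 14.3% in the controls and by Mmp19 at 15.8% after IC. MHCII+CD11c+ control cells were led by Adam8 at 37.6%, with Timp2 at 30.7% and Mmp19 at 17.8%, and after IC by Adam8 at 36.0%, with Mmp19 at 29.4% and Timp2 at 21.6%. Adam17 made up between 2.73% and 7.41% in every group. Timp3 did not exceed 0.284% in any group. Dividing by the longest transcript in place of all exons kept the first 2 genes of each group in the same order.

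**Figure D1:**
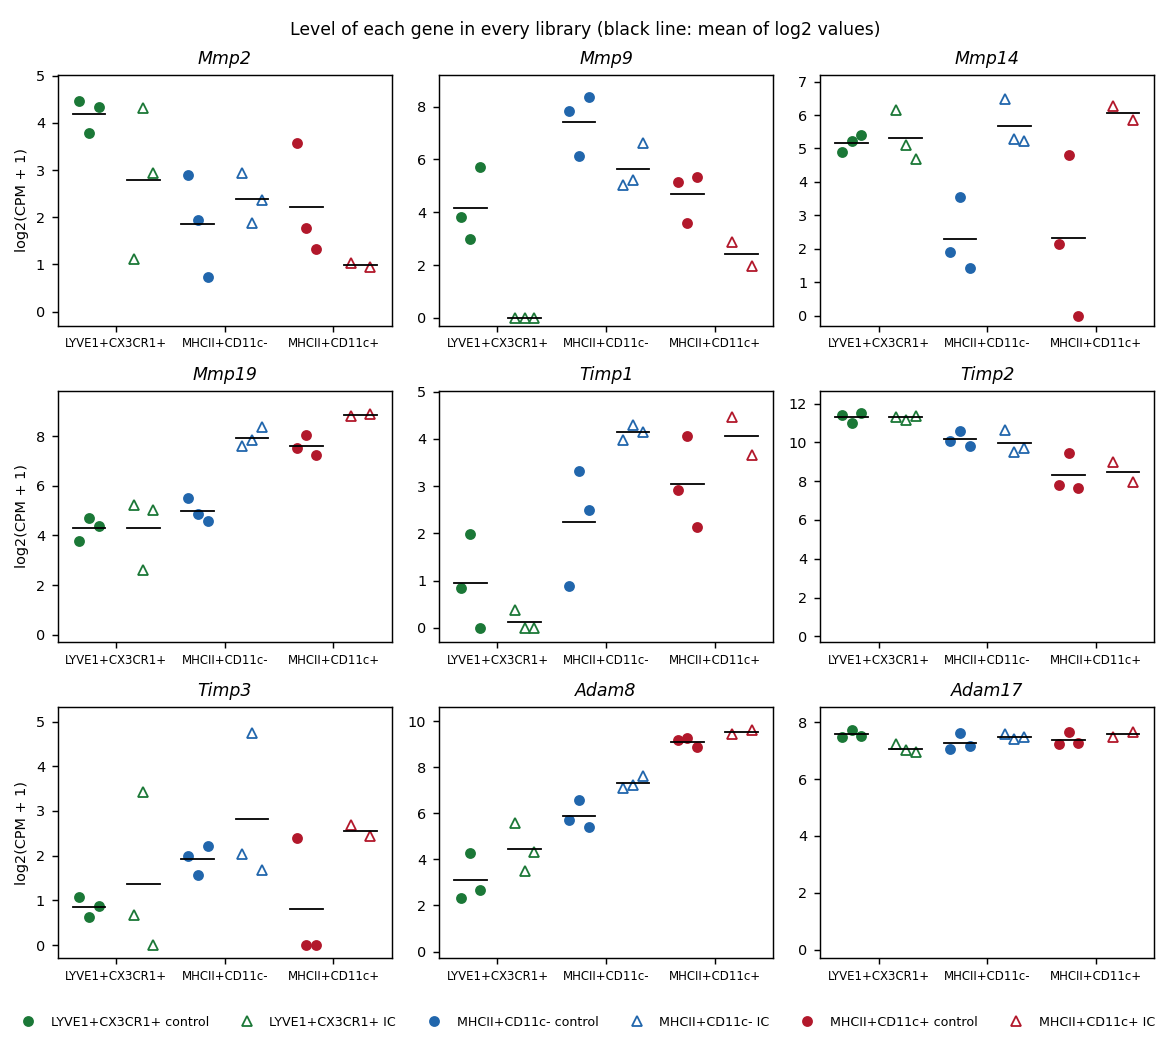
Level of each of the 9 genes in every library, as log2(CPM + 1), for the 3 subsets side by side, with filled circles for control, open triangles for IC and a black line for the mean of the log2 values. Timp2 falls and Adam8 climbs from LYVE1+CX3CR1+ to MHCII+CD11c+ cells, Mmp9 is at 0 in all 3 LYVE1+CX3CR1+ IC libraries, and Adam17 stays within 123 to 208 CPM throughout.

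The 3 Timp transcripts summed to more than the 4 Mmp transcripts of this set in most libraries. The ratio between these sums fell from lining macrophages to MHCII+CD11c+ cells. It depends on the genes picked, since Adam8, Adam17 and other metalloproteases are not in the sum. One of those left out, Mmp12, had a mean of 91.9 CPM in MHCII+CD11c+ controls and 70.0 CPM after IC. In LYVE1+CX3CR1+ libraries the 3 Timp genes summed to 659.7 ± 115.7 (SD, n = 3) CPM per kilobase in controls and 641.8 ± 49.0 (n = 3) after IC, against 23.3 ± 8.04 and 16.7 ± 5.11 for the 4 Mmp genes. The ratio of the sums was 23.3 to 37.5 in the controls and 29.2 to 46.6 after IC. In MHCII+CD11c- cells it was 2.40 to 13.5 and 1.83 to 5.37. In MHCII+CD11c+ cells it was 0.994 to 2.44 in controls and 0.530 and 1.09 after IC, where the Mmp sum was 144.2 ± 3.54 (n = 2) and the Timp sum 115.9 ± 54.0 CPM per kilobase. No LYVE1+CX3CR1+ library overlapped with any MHCII+ library in this ratio, while the MHCII+ subsets overlapped in controls and were apart after IC, where every MHCII+CD11c- library lay above both MHCII+CD11c+ libraries. The highest ratio of each MHCII+ control group came from control library 2, and without it the ratios were 2.40 and 3.50 in MHCII+CD11c- and 0.994 and 1.03 in MHCII+CD11c+ controls. Timp2 supplied at least 82.3% of the Timp sum in every library.

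**Figure D2:**
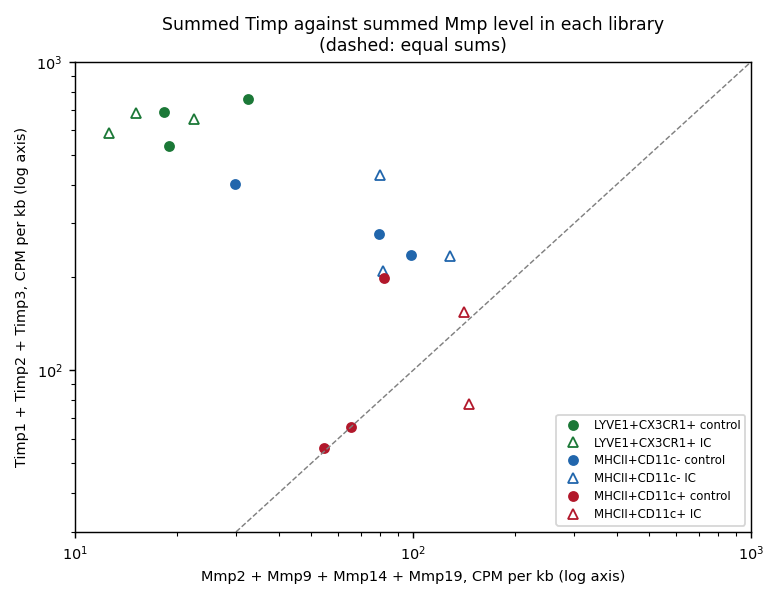
Sum of Timp1, Timp2 and Timp3 against the sum of Mmp2, Mmp9, Mmp14 and Mmp19 in each of the 17 libraries, both in CPM per kilobase of exon on log axes, with a dashed line where the sums are equal. LYVE1+CX3CR1+ libraries lie 23.3 to 46.6 times above equality and MHCII+CD11c+ libraries between 0.530 and 2.44 times.

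Differences between the subsets were tested in the control libraries first, with a call at a Benjamini-Hochberg adjusted p under 0.05 from edgeR's quasi-likelihood test over all genes. Between LYVE1+CX3CR1+ and MHCII+CD11c- cells 1 of the 9 genes was called, Adam8, lower in the lining macrophages, against 1.56% of all genes tested (0.34% higher and 1.22% lower). Libraries of these groups did not overlap for 3 genes higher in LYVE1+CX3CR1+ cells (Mmp2, Mmp14 and Timp2, background 11.3%) and 3 lower ones (Mmp9, Timp3 and Adam8, background 10.3%). Between LYVE1+CX3CR1+ and MHCII+CD11c+ cells 4 genes were called, against 15.2% of all genes (7.83% higher and 7.4% lower), with Timp2 higher and Mmp19, Timp1 and Adam8 lower in the lining macrophages. Here 3 genes were higher without overlap, with a background of 20.8%, and 3 were lower, with a background of 16.9%. Between MHCII+CD11c+ and MHCII+CD11c- cells Mmp19 and Adam8 were called, both higher in MHCII+CD11c+ cells, so 2 of 9 against 8.66% (3.67% higher and 4.99% lower), and 2 genes each were higher or lower without overlap against 12.6% and 14.9%.

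After IC the lining macrophages were again compared with the other subsets. All 4 genes called against MHCII+CD11c- cells, Mmp9, Mmp19, Timp1 and Adam8, were lower in LYVE1+CX3CR1+ cells, against 5.54% of all genes (0.746% higher and 4.79% lower). Libraries did not overlap for 1 gene in the higher direction (background 6.16%) and 5 in the lower (background 15.7%). Against MHCII+CD11c+ cells 4 genes were called again, Timp2 higher and Mmp19, Timp1 and Adam8 lower, beside 11.9% of all genes (3.52% higher and 8.42% lower), with 2 higher and 5 lower genes that did not overlap, beside 13.1% and 27.8%. Between MHCII+CD11c+ and MHCII+CD11c- cells edgeR called 0 of 9, where 4.03% of all genes were called (2.29% higher and 1.75% lower). In that comparison 3 genes had an unadjusted p under 0.05, beside 2140 of all genes, and DESeq2 called 2, beside 1003 genes in all. Libraries did not overlap for 2 higher and 3 lower genes, beside 19.6% and 17%. The control and IC comparisons of a pair of subsets use different libraries.

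**Figure D3:**
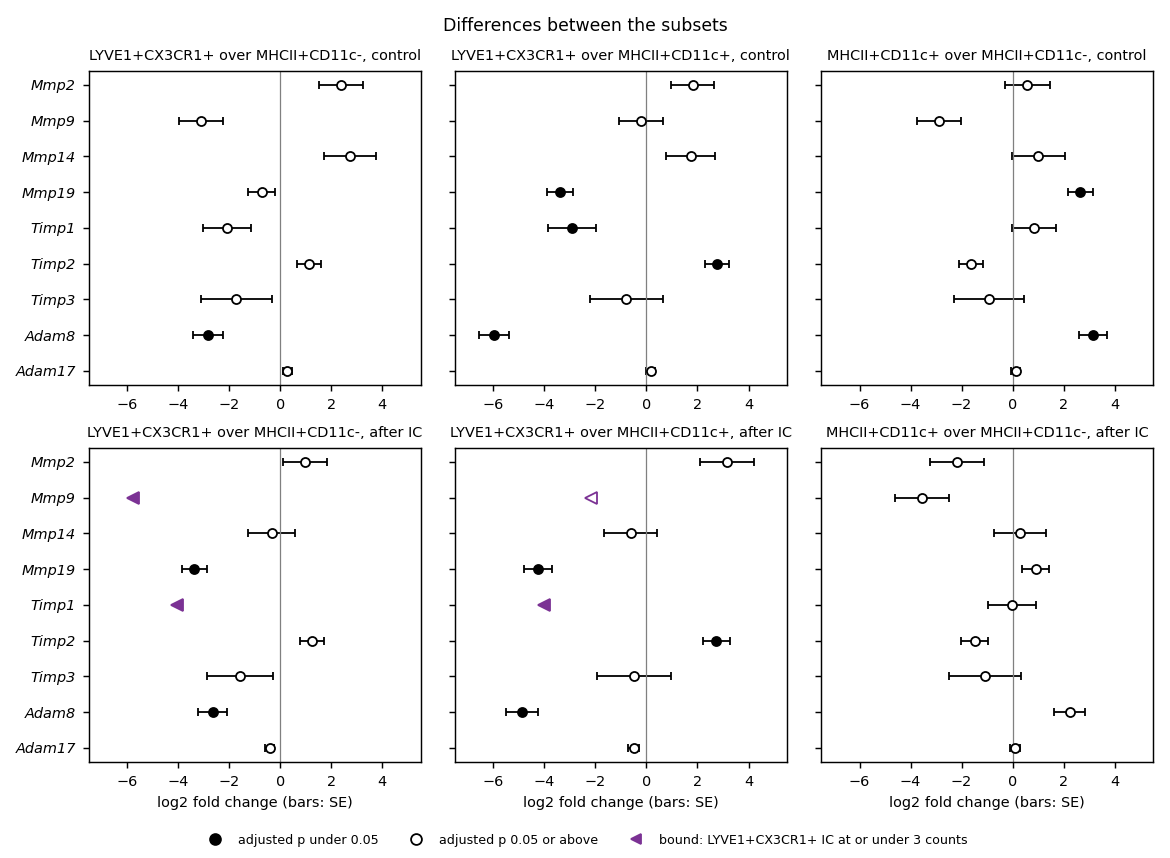
Log2 fold change of each gene between subsets in control libraries (top) and after IC (bottom), with bars for the SE and filled symbols where the adjusted p was under 0.05. Purple triangles are bounds, drawn where all 3 LYVE1+CX3CR1+ IC libraries held 3 counts or fewer, and the filled symbols on the left of zero in the middle column are Mmp19, Timp1 and Adam8 in both rows.

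IC moved few of these genes past the threshold. In LYVE1+CX3CR1+ cells edgeR called 0 of 9, beside 0.963% of all genes (0.151% higher and 0.812% lower). An unadjusted p under 0.05 was found for 3 of the 9, beside 2159 of all genes. DESeq2 called 1, Mmp9, beside 433 genes in all. Libraries did not overlap for 0 genes higher after IC, with a background of 4.95%, and for 2 lower ones, Mmp9 and Adam17, with a background of 16.7%. In MHCII+CD11c- cells 1 of 9 was called, Mmp19, higher after IC, beside 0.701% of all genes (0.543% higher and 0.157% lower), and 4 genes were higher after IC without overlap (Mmp14, Mmp19, Timp1 and Adam8), beside 8.72%, with 0 lower without overlap, beside 8.48%. In MHCII+CD11c+ cells edgeR called 0 of 9, beside 0.216% of all genes (0.216% higher and 0% lower), and DESeq2 0, beside 73 genes in all. At an unadjusted p under 0.05 were 4 of the 9, beside 795 of all genes. There 4 genes were higher without overlap (Mmp14, Mmp19, Timp3 and Adam8), beside 14.1%, and Mmp2 and Mmp9 were lower without overlap, beside 9.02%. The difference of the IC response between subsets was called for 0 of 9 genes in each pair. For LYVE1+CX3CR1+ against MHCII+CD11c- cells edgeR called 0.0262% of all genes (0.00655% higher and 0.0196% lower). An unadjusted p under 0.05 was found for 5 of the 9, beside 1152 of all genes. DESeq2 called 2, Mmp9 and Mmp19, beside 38 genes in all. For LYVE1+CX3CR1+ against MHCII+CD11c+ cells edgeR called 0.0327% of all genes (0.0131% higher and 0.0196% lower). An unadjusted p under 0.05 was found for 2 of the 9, beside 1225 of all genes, and DESeq2 called 0, beside 42 genes in all. Between the MHCII+ subsets edgeR called 0% of all genes. The unadjusted number was 1 of the 9, beside 496 of all genes, and DESeq2 called 0, beside 2 genes in all. Over all genes tested, the median log2 difference after IC was -0.14 for lining macrophages, -0.03 for MHCII+CD11c- and 0.02 for MHCII+CD11c+ cells, against -0.04, 1.35 and 0.43 over the 9 genes.

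**Figure D4:**
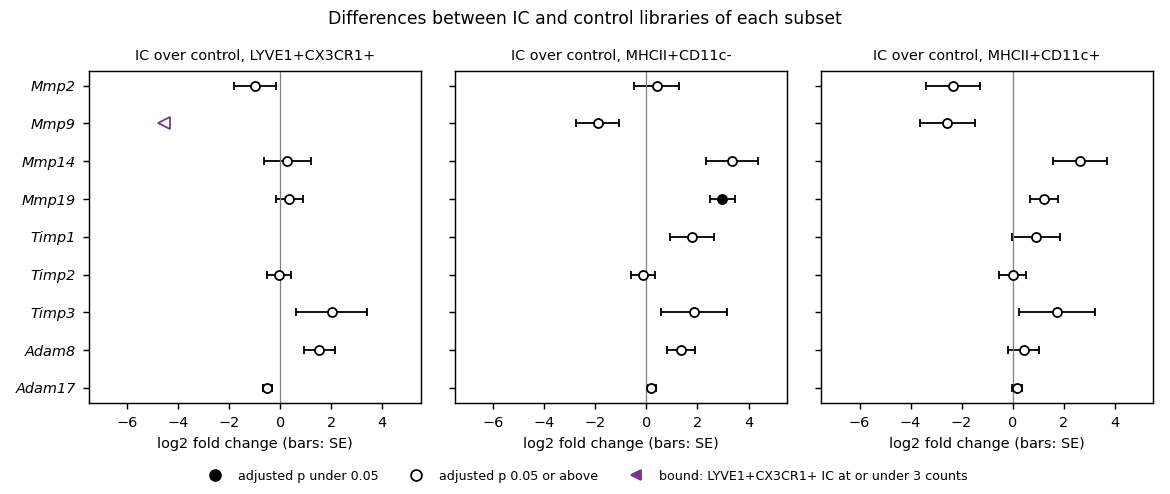
Log2 fold change of each gene after IC over control within each subset, with bars for the SE and filled symbols where the adjusted p was under 0.05. Mmp19 in MHCII+CD11c- cells is the single filled symbol, the open triangle is the bound for Mmp9 in LYVE1+CX3CR1+ cells, and Timp1 is not drawn there because both groups lay near the floor of 3 counts.

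Timp2 was the most abundant inhibitor in every group and was highest in lining macrophages. It lies on chromosome 11 (118301069 to 118355740, minus strand, GRCm38 with GENCODE M21). LYVE1+CX3CR1+ control libraries held 2673, 2062 and 2957 CPM, and those after IC held 2548, 2286 and 2662 CPM. MHCII+CD11c- libraries held 1076, 1526 and 898 CPM in controls and 1607, 726 and 839 CPM after IC. The lowest levels were in MHCII+CD11c+ cells, with 224, 709 and 203 CPM in controls and 505 and 249 CPM after IC. The groups thus ranked in the same order in both conditions, without overlap between neighboring subsets, and IC and control libraries overlapped within every subset. Timp2 was 6.77-fold higher in lining macrophages than in MHCII+CD11c+ control cells (log2 fold change 2.76 ± 0.47 SE, adjusted p = 0.00251) and 6.62-fold higher after IC (2.73 ± 0.53, adjusted p = 0.0105). The log2 fold change in controls was 3.59 without MHCII+CD11c+ control library 2, and that after IC was 3.33 without IC library 1 of the same subset. Without MHCII+CD11c+ IC library 2 the latter call was lost, with an adjusted p of 0.132, leaving 1 library in that group whose spread is taken from the others. Against MHCII+CD11c- cells the 2.20-fold and 2.36-fold differences did not pass the test, with adjusted p = 0.418 in controls and 0.164 after IC. Fitted on those groups alone they did, with adjusted p-values of 0.00564 and 0.0122, and without the second control libraries the adjusted p in controls was 0.0369. The difference between the MHCII+ subsets in controls was 3.08-fold, with an adjusted p of 0.0637 that became 0.000532 without MHCII+CD11c+ control library 2, the highest of its group.

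Timp1, an inhibitor that is induced in many inflamed tissues, ran the other way. It was near the floor in lining macrophages, at 0.79, 2.97 and 0 CPM in controls and 0.29, 0 and 0 CPM after IC, the latter being 1, 0 and 0 counts. MHCII+CD11c- cells held 0.85, 9.01 and 4.68 CPM in controls and 14.9, 18.5 and 16.8 CPM after IC. MHCII+CD11c+ cells held 6.59, 15.6 and 3.40 CPM in controls and 21.0 and 11.7 CPM after IC. The control groups of the MHCII+ subsets overlapped, as did their IC groups, and no LYVE1+CX3CR1+ IC library came near either. In controls Timp1 was 7.48-fold lower in lining macrophages than in MHCII+CD11c+ cells (log2 fold change -2.90 ± 0.93 SE, adjusted p = 0.0425). That call was lost without LYVE1+CX3CR1+ control library 1 (0.164) or 3 (0.16), and without MHCII+CD11c+ control library 1 (0.0596) or 2 (0.179). It was also lost at equal depth (0.0754), with only the compared groups (0.0853), with surrogate variables (0.0586) and without the second control libraries (0.178). The fold ranged from 4.38 without MHCII+CD11c+ control library 2 and 4.73 without LYVE1+CX3CR1+ control library 3 to 21.2 without LYVE1+CX3CR1+ control library 2. After IC it was at least 16.4-fold lower than in MHCII+CD11c- cells (adjusted p = 0.00281) and at least 16.0-fold lower than in MHCII+CD11c+ cells (adjusted p = 0.00142), taking 3 counts in each LYVE1+CX3CR1+ IC library as the floor. Both calls after IC held without any single library of those groups. Every MHCII+CD11c- IC library exceeded the controls, and the 3.41-fold difference had an adjusted p of 0.508. Timp1 lies on chromosome X (20870166 to 20874735, plus strand) within Syn1, which is on the opposite strand, and Syn1, a gene of neurons, was counted at 0 to 140 reads per library, in all at 113% of the Timp1 counts. The sources used here do not say whether strand was used in counting, so reads of that locus cannot be told apart.

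Timp3 was scarce and rested on single libraries. It was at 0.54 to 1.10 CPM in LYVE1+CX3CR1+ and 1.94 to 3.68 CPM in MHCII+CD11c- controls. In MHCII+CD11c+ controls it was at 4.25 CPM in library 1 and 0 in the others. After IC the LYVE1+CX3CR1+ libraries held 0.59, 9.76 and 0 CPM, the MHCII+CD11c- libraries 3.10, 25.8 and 2.20 CPM, and the MHCII+CD11c+ libraries 5.44 and 4.40 CPM. In both LYVE1+CX3CR1+ and MHCII+CD11c- cells, IC library 2 held most of the counts, 31 and 125. No comparison called Timp3, with adjusted p-values of 0.533 to 1.0. It also lies within a longer gene of the opposite strand, Syn3, whose counts came to 12.2% of its own.

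Mmp19 was the 1 gene of the 9 called after IC within a subset, and it was called in 4 of the 6 comparisons between subsets. It lies on chromosome 10 (128790910 to 128800824, plus strand) and overlaps Tmem198b on the opposite strand, whose counts came to 11.5% of its own. MHCII+CD11c- control libraries held 43.9, 27.7 and 22.7 CPM and the IC libraries 191, 227 and 329.9 CPM, with no overlap. MHCII+CD11c+ libraries held 185, 259.9 and 152 CPM in controls and 448 and 481 CPM after IC, again apart. LYVE1+CX3CR1+ libraries held 12.6, 25.1 and 19.95 CPM in controls and 36.3, 5.04 and 31.9 CPM after IC, which overlapped. The rise in MHCII+CD11c- cells was 7.88-fold (log2 fold change 2.98 ± 0.49 SE, adjusted p = 0.0204). All alternatives kept its direction, and the call was lost without MHCII+CD11c- IC library 2 (0.0543) or 3 (0.0952) or without control library 1 (0.0631), 2 (0.0617) or 3 (0.13). In MHCII+CD11c+ cells the 2.33-fold difference (1.22 ± 0.54) had an adjusted p of 0.907, and the responses of the MHCII+ subsets were not shown to differ (log2 difference -1.76 ± 0.73, adjusted p = 1.0). Between LYVE1+CX3CR1+ and MHCII+CD11c- cells the log2 responses differed by -2.63 ± 0.72, with an adjusted p of 0.405 that became 0.0219 in DESeq2 and 0.019 with surrogate variables.

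Between the subsets Mmp19 was lower in lining macrophages than in MHCII+CD11c+ cells by 10.4-fold in controls (log2 fold change -3.38 ± 0.50 SE, adjusted p = 0.000707) and by 19.1-fold after IC (-4.25 ± 0.56, adjusted p = 0.000365). These calls and the 6.29-fold higher level in MHCII+CD11c+ than in MHCII+CD11c- control cells (2.65 ± 0.50, adjusted p = 0.00599) held without any single library. After IC lining macrophages were 10.2-fold below MHCII+CD11c- cells (-3.36 ± 0.51, adjusted p = 0.00325), although a fit of those groups alone gave an adjusted p of 0.118. In controls these subsets overlapped, and their 1.66-fold difference had an adjusted p of 0.804. From lowest to highest the groups ranked LYVE1+CX3CR1+ control and IC, MHCII+CD11c- control, MHCII+CD11c+ control, MHCII+CD11c- IC and MHCII+CD11c+ IC. Neighbors in this order overlapped in their libraries except MHCII+CD11c- control below MHCII+CD11c+ control and MHCII+CD11c+ IC above the rest.

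Mmp9 was highest in MHCII+CD11c- cells and was not detected in lining macrophages after IC. The gene lies on chromosome 2 (164940780 to 164955850, plus strand). LYVE1+CX3CR1+ control libraries held 13.1, 7.03 and 50.8 CPM, that is 83, 26 and 364 counts, and all 3 IC libraries held 0 counts, where 3 counts would have been 0.88 to 1.24 CPM. MHCII+CD11c- libraries held 228, 68.4 and 324 CPM in controls and 31.7, 35.9 and 97.7 CPM after IC, which overlapped. MHCII+CD11c+ libraries held 34.0, 10.96 and 39.3 CPM in controls and 6.32 and 2.93 CPM after IC. Every IC group thus had a lower mean than its controls, at least 23.1-fold lower in LYVE1+CX3CR1+ cells (adjusted p = 0.0833), 3.76-fold in MHCII+CD11c- cells (adjusted p = 0.505) and 5.90-fold in MHCII+CD11c+ cells (adjusted p = 0.947). The bound in LYVE1+CX3CR1+ cells was 9.83-fold without control library 3, the highest of its group. None of these passed the edgeR test. The difference in LYVE1+CX3CR1+ cells was called by DESeq2 (adjusted p = 7.2e-06) and in a fit of those groups alone (0.0159), and without any 1 library its adjusted p was 0.088 to 0.166. The call for Mmp9 was in the IC libraries, where it was at least 53.9-fold lower in lining macrophages than in MHCII+CD11c- cells (adjusted p = 0.0153). The call held with each library of these groups left out, while the bound became 33.1-fold without MHCII+CD11c- IC library 3. With surrogate variables that adjusted p became 0.149. In controls the 8.58-fold difference between these subsets had an adjusted p of 0.184, and MHCII+CD11c+ cells were 7.43-fold below MHCII+CD11c- cells (adjusted p = 0.0876, and 0.0497 without MHCII+CD11c- control library 2). DESeq2 called both, with adjusted p-values of 0.00923 and 0.0114.

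Neutrophils are rich in MMP9, and their markers moved with part of this pattern. The 9 neutrophil markers summed to 30.8 to 40.8 CPM in LYVE1+CX3CR1+ controls and 12.6 to 32.8 CPM after IC, to 41.1 to 379.6 and 67.7 to 114 CPM in MHCII+CD11c- cells, and to 98.8 to 577.5 and 25.7 to 30.6 CPM in MHCII+CD11c+ cells. In the lining macrophages most of that sum was Csf3r, at 29.2 to 32.8 CPM in controls, while S100a8 did not exceed 1.67 CPM and S100a9 4.88 CPM in any control library and both were at 0 in all IC libraries. The highest Mmp9 level of all, 324 CPM in MHCII+CD11c- control library 3, stood beside the lowest neutrophil sum of its group, 41.1 CPM, in a group where S100a9 ranged from 0 to 92.8 CPM. MHCII+CD11c+ control library 1 had the highest neutrophil sum, 577.5 CPM, with 34.0 CPM of Mmp9. Beyond these values the part of neutrophil RNA in Mmp9 was not tested. A lower bulk level can also mean fewer cells that express a gene or less RNA from each, which cannot be told apart here.

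**Figure D5:**
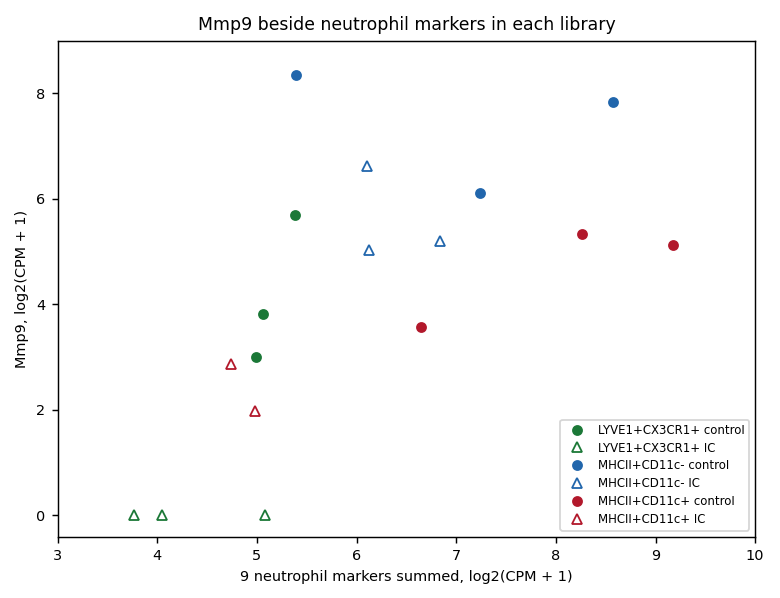
Mmp9 against the sum of 9 neutrophil markers in each library, both as log2(CPM + 1), with filled circles for control and open triangles for IC. MHCII+CD11c- control library 3, at 324 CPM of Mmp9 and 41.1 CPM of neutrophil markers, sits at the upper left, and the 3 LYVE1+CX3CR1+ IC libraries lie on the lower edge.

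Mmp14, the membrane-bound collagenase, was present in lining macrophages in both conditions and nearly absent from most MHCII+ control libraries. It lies on chromosome 14 (54431612 to 54445364, plus strand). LYVE1+CX3CR1+ libraries held 28.7, 36.2 and 41.0 CPM in controls and 70.5, 33.4 and 24.5 CPM after IC. MHCII+CD11c- controls held 2.77, 10.6 and 1.67 CPM, and the IC libraries 88.9, 37.9 and 36.1 CPM. MHCII+CD11c+ controls held 3.40, 26.8 and 0 CPM, and the IC libraries 76.1 and 56.3 CPM. In both MHCII+ subsets every IC library lay above every control, and after IC the 3 subsets overlapped. The fold differences after IC, 10.2 in MHCII+CD11c- (log2 fold change 3.36 ± 1.003 SE, adjusted p = 0.245) and 6.24 in MHCII+CD11c+ cells (2.64 ± 1.06, adjusted p = 0.837), did not pass the test. Control library 2 was the highest control of both subsets. Without it in both, the log2 fold changes were 4.55 (adjusted p = 0.00168) and 5.02 (adjusted p = 0.000863), and leaving out MHCII+CD11c+ control library 2 alone gave 5.03 (adjusted p = 0.0213) in that subset. DESeq2 called Mmp14 in MHCII+CD11c- cells (0.0452). In controls the 6.65-fold and 3.33-fold higher levels of LYVE1+CX3CR1+ cells over the MHCII+CD11c- and MHCII+CD11c+ cells had adjusted p-values of 0.326 and 0.299, which became 0.00206 and 0.000285 without both second control libraries. Leaving out MHCII+CD11c+ control library 2 alone gave 0.00515 in the latter comparison.

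Fibroblasts are a main source of MMP14 and MMP2 in synovium, so their markers are given beside these genes. The 10 fibroblast markers summed to 71.9 to 151 CPM in MHCII+CD11c- controls and 72.7 to 186 CPM after IC, and to 10.6 to 229.9 and 91.4 to 94.9 CPM in MHCII+CD11c+ cells. The sums of control and IC libraries overlapped in both of these subsets. In LYVE1+CX3CR1+ cells the sums were 73.0 to 104 CPM in controls and 117 to 199.5 CPM after IC. Much of the sum was Pdpn, which macrophages can also express, at up to 119 CPM in MHCII+CD11c+ controls, and Lum was at 0 in every LYVE1+CX3CR1+ IC and MHCII+CD11c+ IC library. The part of fibroblast RNA in the levels of Mmp2 and Mmp14 was not tested.

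Mmp2, the gelatinase that MMP14 activates, was low throughout and was called in no comparison. LYVE1+CX3CR1+ controls held the most, 21.1, 12.7 and 19.1 CPM, above every MHCII+ control library. After IC these cells ranged from 1.17 to 18.9 CPM. The MHCII+CD11c- libraries held 0.67 to 6.40 CPM in controls and 2.68 to 6.65 CPM after IC, and the MHCII+CD11c+ libraries 1.51 to 10.9 and 0.92 to 1.03 CPM. The library with the most Mmp2 also had the highest fibroblast marker sum of its group in MHCII+CD11c+ controls (library 1, 229.9 CPM). The same held in LYVE1+CX3CR1+ controls, LYVE1+CX3CR1+ IC and MHCII+CD11c- IC. In MHCII+CD11c- controls library 1 held the most Mmp2, 6.40 CPM, beside the lowest sum, 71.9 CPM. Of the MHCII+CD11c+ IC libraries, the one with more Mmp2 had the lower sum. The largest difference, 8.91-fold higher in LYVE1+CX3CR1+ than MHCII+CD11c+ cells after IC (log2 fold change 3.16 ± 1.05 SE), had an adjusted p of 0.0664, which ran from 0.0121 in DESeq2 to 0.329 without MHCII+CD11c+ IC library 2 and was 0.0233 without LYVE1+CX3CR1+ IC library 1.

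Adam8 was called in 5 of the 6 comparisons between subsets. It lies on chromosome 7 (139978932 to 139992562, minus strand). MHCII+CD11c+ libraries held 583, 606 and 469 CPM in controls and 700.3 and 792 CPM after IC. MHCII+CD11c- libraries held 51.0, 93.8 and 41.1 CPM in controls and 134, 149 and 194 CPM after IC. LYVE1+CX3CR1+ libraries held 3.94, 18.7 and 5.30 CPM in controls and 46.5, 10.4 and 19.1 CPM after IC. The 3 subsets were separate in both conditions, and IC libraries lay above controls in both MHCII+ subsets but overlapped with them in lining macrophages. The difference between MHCII+CD11c+ and LYVE1+CX3CR1+ cells was 62.8-fold in controls (log2 fold change -5.97 ± 0.58 SE for LYVE1+CX3CR1+ over MHCII+CD11c+, adjusted p = 7.45e-05) and 29.2-fold after IC (-4.87 ± 0.63, adjusted p = 0.000489), and both calls held without any single library. The folds became 119-fold without LYVE1+CX3CR1+ control library 2 and 51.2-fold without IC library 1, the highest of their groups. MHCII+CD11c+ controls exceeded MHCII+CD11c- controls 8.87-fold (3.15 ± 0.55, adjusted p = 0.00527), and after IC the 4.70-fold difference had an adjusted p of 0.065, which DESeq2 put at 0.0135. With surrogate variables the control difference had an adjusted p of 0.0541.

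The step from lining macrophages to MHCII+CD11c- cells was smaller for Adam8 and its calls were less firm. It was 7.08-fold in controls (log2 fold change -2.82 ± 0.59 SE, adjusted p = 0.045). The call was lost without LYVE1+CX3CR1+ control library 1 (0.192) or 3 (0.219), and without MHCII+CD11c- control library 1 (0.0937), 2 (0.0801) or 3 (0.0652), while without LYVE1+CX3CR1+ control library 2 the fold was 13.4. It was also lost without a filter on low counts (0.0692), at equal depth (0.0892), with only the compared groups (0.098), with surrogate variables (0.0616) and without the second control libraries (0.078). After IC it was 6.21-fold (-2.64 ± 0.57, adjusted p = 0.0232), and was lost without LYVE1+CX3CR1+ IC library 2 (0.0518) or 3 (0.0842) or MHCII+CD11c- IC library 2 (0.0568) or 3 (0.0839), and was 10.9-fold without LYVE1+CX3CR1+ IC library 1. IC against control gave 2.90-fold in LYVE1+CX3CR1+ (adjusted p = 0.281) and 2.55-fold in MHCII+CD11c- cells (adjusted p = 0.432), neither called. Neutrophils and dendritic cells also express Adam8. Dendritic markers summed to 218.5 to 574 CPM in MHCII+CD11c+ controls and 235 to 346.5 CPM after IC, against 65.2 to 225 CPM in MHCII+CD11c- and 6.61 to 23.3 CPM in LYVE1+CX3CR1+ libraries, and their part in the Adam8 and Mmp19 levels was not tested. The 9 neutrophil markers summed to 98.8 to 577.5 CPM in MHCII+CD11c+ controls and 25.7 to 30.6 CPM after IC. The part of neutrophil RNA in the Adam8 level was not tested.

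Timp1 and Adam8 were both called lower in lining macrophages than in MHCII+CD11c+ cells in either condition, so the 250 bases before their start are shown, from RefSeq on GRCm38.p6 and written 5′ to 3′ along the gene. Capitals mark an ETS core (AGGAAG) or a GC box (GGGCGG), found on either strand, with no overlap between these motifs in the windows shown.
Timp1, chrX:20869916-20870165, plus strand: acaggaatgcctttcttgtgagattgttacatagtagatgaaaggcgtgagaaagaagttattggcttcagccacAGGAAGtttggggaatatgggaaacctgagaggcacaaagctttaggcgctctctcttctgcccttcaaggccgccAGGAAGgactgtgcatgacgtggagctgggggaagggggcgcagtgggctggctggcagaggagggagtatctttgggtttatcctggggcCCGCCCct
Adam8, chr7:139992563-139992812, minus strand: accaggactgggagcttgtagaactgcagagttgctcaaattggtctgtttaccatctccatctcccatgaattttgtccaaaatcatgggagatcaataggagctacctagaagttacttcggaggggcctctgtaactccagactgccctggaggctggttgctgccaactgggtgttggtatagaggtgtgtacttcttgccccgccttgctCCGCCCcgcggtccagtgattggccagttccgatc

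The Timp1 window held 2 ETS cores, beginning 175 and 99 bases before the start, and 1 GC box 8 bases before it. The Adam8 window held 1 GC box, 35 bases before the start, and no ETS core in these letters. Of 32851 promoter windows of the same length, 29.5% held an ETS core and 32.7% a GC box, so that neither is unusual. Windows were matched for 6 of the 9 genes, Mmp14, Timp1, Timp2, Timp3, Adam8 and Adam17, and each held at least 1 GC box. The AP-1 letters TGANTCA, present in 6.75% of all windows, and the TATAAA letters, present in 12.4%, were in none of the 6. These are matches of letters and not measured sites.

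Adam17, the sheddase of TNF, was the steadiest of the 9 genes. It lies on chromosome 12 (21323509 to 21373632, minus strand) and overlaps Iah1 on the opposite strand, whose counts came to 11.5% of its own. Its mean level was 189.5 ± 16.2 CPM in LYVE1+CX3CR1+ controls, 155 ± 34.2 CPM in MHCII+CD11c- controls and 168 ± 28.2 CPM in MHCII+CD11c+ controls (SD, n = 3 each). After IC it was 133 ± 14.0 (n = 3), 177.5 ± 11.9 (n = 3) and 189.4 ± 14.4 CPM (n = 2). All 3 LYVE1+CX3CR1+ IC libraries, at 149, 128 and 123 CPM, lay below the controls at 177, 208 and 183 CPM, and below every IC library of the other subsets. The 1.42-fold lower level after IC (log2 fold change -0.51 ± 0.18 SE) had an adjusted p of 0.196, with a range of 0.139 to 0.437 over the alternatives. In MHCII+CD11c- and MHCII+CD11c+ cells the log2 fold changes were 0.19 ± 0.18 (adjusted p = 0.841) and 0.17 ± 0.20 (adjusted p = 1.0), and the libraries overlapped.

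Other genes of the protease system were counted in 8 lists of 89 genes in all, of which 58 were tested, with the 9 genes above left out. Between LYVE1+CX3CR1+ and MHCII+CD11c+ cells 9 were higher and 12 lower in controls, beside 7.83% and 7.4% of all genes, and 7 higher and 12 lower after IC, beside 3.52% and 8.42%. The other pairs gave 1 higher and 1 lower (LYVE1+CX3CR1+ over MHCII+CD11c-) and 4 higher and 6 lower (MHCII+CD11c+ over MHCII+CD11c-) in controls, beside 1.56% and 8.66% of all genes in either direction. After IC they gave 0 higher and 5 lower, and 5 higher and 5 lower, beside 5.54% and 4.03%. IC against control called 0 in LYVE1+CX3CR1+ cells by edgeR (10 at an unadjusted p under 0.05, 3 by DESeq2), 1 in MHCII+CD11c- cells and 0 in MHCII+CD11c+ cells (8 and 0), beside 0.963%, 0.701% and 0.216% of all genes. The 1 gene called by edgeR, in MHCII+CD11c- cells, was Vcam1, an adhesion molecule shed by ADAM17. It rose from 5.96 ± 2.80 to 43.7 ± 19.7 CPM (SD, n = 3, adjusted p = 0.0461). The differences of IC responses called 0 by edgeR and 0 by DESeq2. For LYVE1+CX3CR1+ against MHCII+CD11c- cells 6 of the 58 had an unadjusted p under 0.05, beside 1152 of all genes. For LYVE1+CX3CR1+ against MHCII+CD11c+ cells the number was 7, beside 1225, and between the MHCII+ subsets 6, beside 496.

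Among the 9 further MMP genes tested, those that differed were high in MHCII+CD11c+ cells. Mmp12, the macrophage elastase, was at 91.9 ± 64.9 CPM in MHCII+CD11c+ controls and 70.0 ± 25.9 CPM after IC, against means of 0.33 to 1.71 CPM in the other 4 groups. It was called against both other subsets in controls (adjusted p = 6.29e-05 for LYVE1+CX3CR1+ and 0.000206 for MHCII+CD11c-) and after IC (0.000316 and 0.00221). Mmp25, a membrane-anchored MMP of leukocytes, was at 17.2 ± 8.31 and 36.8 ± 10.1 CPM in MHCII+CD11c+ cells against 0.36 and 0.28 CPM in lining macrophages (adjusted p = 0.000247 and 0.000123). Mmp8, the neutrophil collagenase, was called in controls, at 12.4 ± 9.36 CPM in MHCII+CD11c+ and 0 in LYVE1+CX3CR1+ cells (adjusted p = 0.00353), and was at 0.073 CPM in MHCII+CD11c+ cells after IC, where the neutrophil markers were also low. No MMP of the list was called after IC within a subset.

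Unlike Adam8, Adam9 and Adam15, which are widely expressed membrane proteases, were higher in lining macrophages than in MHCII+CD11c+ cells. Adam9 was at 394 ± 21.9 CPM in LYVE1+CX3CR1+ and 166 ± 47.8 CPM in MHCII+CD11c+ controls (adjusted p = 0.000111), and Adam15 at 543 ± 43.1 and 287 ± 57.9 CPM (adjusted p = 0.000453). Both were also higher there than in MHCII+CD11c+ cells after IC (adjusted p = 0.008 and 0.000358). Against MHCII+CD11c- cells neither was called, with adjusted p-values of 0.3 and 0.682 for Adam9 and 0.303 and 0.058 for Adam15 in controls and after IC. They were 2 of 5 such genes tested (beside 15.2% of all genes, 7.83% higher), in a control comparison where Adam17 had an adjusted p of 0.616. Of 8 ADAMTS genes tested 1 passed the threshold in that control comparison, beside 15.2% of all genes (7.83% higher). It was Adamts14, a procollagen protease, at 8.54 ± 1.99 CPM in LYVE1+CX3CR1+ and 0.50 ± 0.70 CPM in MHCII+CD11c+ controls (adjusted p = 0.0249). For the same pair of subsets after IC, edgeR called 0 of the 8, beside 11.9% of all genes. Of 3 further inhibitors Reck passed the filter and was not called in any comparison.

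Some genes that activate or clear matrix proteases also differed between the subsets. Of 6 tested 1 was higher and 3 were lower in lining macrophages than in MHCII+CD11c+ controls, beside 7.83% and 7.4% of all genes. Against MHCII+CD11c- cells 1 was higher and 0 lower in controls, beside 1.56% of all genes in either direction, and 0 were called after IC, beside 5.54%. Lrp1, the endocytic receptor that takes up several MMPs and TIMPs, was at 3854 ± 529 CPM in LYVE1+CX3CR1+ controls, 1872 ± 473 CPM in MHCII+CD11c- (adjusted p = 0.0346) and 1848 ± 158 CPM in MHCII+CD11c+ controls (adjusted p = 0.00504). After IC the means of Lrp1 were 3858 ± 614 CPM in lining macrophages, 2258 ± 1054 CPM in MHCII+CD11c- (adjusted p = 0.0729, not called) and 2114 ± 304 CPM in MHCII+CD11c+ cells (adjusted p = 0.0497). Furin, the convertase that removes the propeptide of MMP14, was higher in MHCII+CD11c+ controls, at 649.8 ± 22.9 CPM against 283.5 ± 10.9 in LYVE1+CX3CR1+ (adjusted p = 0.000453) and 319 ± 128 CPM in MHCII+CD11c- controls (adjusted p = 0.00402). Cd44, a hyaluronan receptor that docks MMP9, was at 1600.0 ± 297 CPM in MHCII+CD11c+ controls against 553 ± 112 and 524 ± 279.9 CPM (adjusted p = 0.000901 and 0.00128). Furin and Cd44 were called in the same direction after IC (Furin 0.00976 and 0.0204, Cd44 0.000785 and 0.0184). Plaur, the urokinase receptor, was the gene of the plasminogen system called in both conditions, at 370.1 ± 78.7 CPM in MHCII+CD11c+ controls against 127 ± 13.9 CPM in LYVE1+CX3CR1+ (adjusted p = 8.26e-05) and 111 ± 53.4 CPM in MHCII+CD11c- controls (adjusted p = 5.81e-05).

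While Adam17 itself was not called, some of its partners and substrates were. Of 5 partners 2 were higher and 1 lower in lining macrophages than in MHCII+CD11c+ controls, beside 7.83% and 7.4% of all genes. After IC 1 was higher and 2 were lower, without Rhbdf2 among them, beside 3.52% and 8.42%. Against MHCII+CD11c- controls 0 of 5 partners and 1 of 18 substrates were called, beside 1.56% of all genes. After IC 1 of 5 partners and 4 of 18 substrates were called, all lower in lining macrophages, beside 4.79% of all genes. Rhbdf1 and Rhbdf2, the iRhom proteins that carry ADAM17 to the cell surface, were higher in lining macrophages than in MHCII+CD11c+ controls, at 47.5 ± 7.83 against 4.86 ± 2.06 CPM for Rhbdf1 (adjusted p = 0.00131) and 158 ± 7.39 against 69.2 ± 34.2 CPM for Rhbdf2 (adjusted p = 0.00864). Pdia6 was lower, at 128 ± 24.4 against 224 ± 9.87 CPM (adjusted p = 0.00337). Of 18 substrates 3 were higher and 4 lower in lining macrophages than in MHCII+CD11c+ controls, beside 7.83% and 7.4% of all genes. The higher ones were Csf1r (the receptor for M-CSF), Mertk (a receptor for apoptotic cells) and Cd163 (the hemoglobin scavenger receptor). These markers of resident macrophages had adjusted p-values of 8.4e-08, 1.65e-05 and 0.0012. Mean Csf1r was 2849 CPM in lining and 2551 CPM in MHCII+CD11c- controls, and mean Mertk 224.7 and 140.6 CPM. Mean Cd163 was higher in MHCII+CD11c- cells, at 1747 CPM in controls and 2684 CPM after IC against 1210 and 1286 CPM. That difference was called after IC. Hbegf, an EGF receptor ligand, was highest in MHCII+CD11c- cells, at 67.7 ± 36.3 CPM in controls and 66.1 ± 12.1 CPM after IC, against 17.3 ± 7.90 (adjusted p = 0.0132) and 4.90 ± 3.50 CPM (adjusted p = 3.61e-05) in lining macrophages.

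The genes whose pattern over the 17 libraries was most like each member were found by Pearson correlation of log2 CPM among 6596 genes with a mean of at least 20 CPM. The values are descriptions, since libraries of 1 group share their cells and treatment. Timp2 ran closest to Alox5, the 5-lipoxygenase (r = 0.982), and Pmp22 (0.980), and Adam8 to the Src-family kinase Fgr (0.970) and Slc9a4 (0.959). For Mmp19 they were Wdr43 (0.936) and Pno1 (0.929), both factors of ribosome assembly, and for Mmp9 Susd1 (0.935) and the C-type lectin Cd209b (0.931). Timp1 was most like Odc1 (0.912), the first enzyme of polyamine synthesis, and Fgl2 (0.905). The closest genes to Mmp14 were Ppp1r14b (0.889) and Pdlim4 (0.866), to Mmp2 Golga4 (0.879) and Lats2 (0.756), to Adam17 Pggt1b (0.824) and Srxn1 (0.811), and to Timp3 Herc6 (0.792) and Nfrkb (0.778). Alox5 followed the order of Timp2, at 447 ± 40.8 CPM in control lining macrophages, 279.7 ± 10.6 CPM in MHCII+CD11c- and 103 ± 66.8 CPM in MHCII+CD11c+ controls. Cd209b, like Mmp9, was highest in MHCII+CD11c- controls at 113 ± 51.3 CPM and near 0 in LYVE1+CX3CR1+ cells after IC, at 0.10 ± 0.18 CPM.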

How the data were processed

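Macrophages were sorted from digested synovium of Fcgr2b-KO mice, and the authors made stranded libraries with a pico-input total RNA kit and sequenced them as paired ends. Per the labels and the study's methods, reads were trimmed with Trim Galore, checked with FastQC, aligned with HISAT2 to mm10 and counted with featureCounts. Versions, annotation, strand setting and the handling of multimapping reads are not given in the sources used here. The deposited values are raw counts per gene symbol. One column of the combined table matched no library, held only 0 and was not used (1 column).

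The 17 libraries were grouped by the labels. Genes were filtered with filterByExpr (minimum count 10, by group), leaving 15272 of 22859, scaled by TMM and fitted with edgeR 4.0.16 (quasi-likelihood, robust, a mean for each of the 6 groups, 11 residual degrees of freedom) in R 4.3.3. Contrasts were adjusted by Benjamini-Hochberg over all genes tested and called under 0.05. Levels are TMM-scaled CPM, and levels compared between genes were divided by union exon length from GENCODE M21. The named genes, lists and members were chosen with earlier results of these data known. All 9 members are named, the lists by counts with up to 3 called genes of lowest p, and 2 most-alike genes per member. Markers of neutrophils, fibroblasts, dendritic cells, MHC class II and CD11c are given beside the results they touch. The alternatives were DESeq2 1.42.0, RLE size factors, no filter, only the compared groups, equal depth (2301913 counts), replicate number as a block, surrogate variables (sva 3.50.0, 5 variables), a threshold of 0.01, longest-transcript lengths and each library left out. Leaving out control library 2 of both MHCII+ subsets was added after seeing the data. On simulated data for IC against control in MHCII+CD11c- cells, with 15272 genes of which 200 were changed, 14% of 100 genes changed 2-fold and 65% of 100 changed 4-fold were recovered, with 4 false calls. No genome or protein sequences were used, and promoters came from RefSeq (GRCm38.p6).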

Additional observations from a re-analysis of the deposited data

How the results depend on the processing

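No fitted log2 fold change printed for a named gene turned its direction under any alternative. This does not cover the medians. That of all genes after IC in MHCII+CD11c+ cells went from 0.02 to -0.06 with RLE size factors and -0.03 in DESeq2, and Timp2, the median member in LYVE1+CX3CR1+ cells, ran from -0.17 to 0.40. Of the results compared with an alternative 848 kept their side of the threshold, 57 gained it and 39 lost it. The number of members called moved as follows. For LYVE1+CX3CR1+ against MHCII+CD11c- controls it was 1, and became 2 in DESeq2, 0 without a filter on low counts, 3 with only the compared groups, 0 at equal depth, 0 with surrogate variables, 2 without the second control library of either MHCII+ subset (an alternative chosen after seeing the data), 0 at an adjusted p under 0.01, and 0 to 1 with each library left out. For MHCII+CD11c+ against MHCII+CD11c- controls it was 2, and became 4 in DESeq2, 1 with surrogate variables and 2 to 3 with each library left out. For LYVE1+CX3CR1+ against MHCII+CD11c+ it was 4 in controls (3 to 4 with each library left out) and 4 after IC (3 to 5), and 6 in DESeq2, which added Mmp2 and Mmp9. After IC it was 4 for LYVE1+CX3CR1+ against MHCII+CD11c-, 3 with surrogate variables, 3 to 4 with each library left out and 2 under 0.01, and for MHCII+CD11c+ against MHCII+CD11c- 0, becoming 2 in DESeq2, 3 with only the compared groups and 1 with surrogate variables. The IC response counted 0 in LYVE1+CX3CR1+ cells and 1 in DESeq2 or with only the compared groups. In MHCII+CD11c- cells it counted 1, with 2 in DESeq2, with only the compared groups, with surrogate variables or without the second controls, 0 under 0.01 and 0 to 1 with each library left out. In MHCII+CD11c+ cells it counted 0, with 1 with surrogate variables or without the second controls and 0 to 1 with each library left out. The differences of responses counted 0, with 2 in DESeq2 and 1 with surrogate variables for LYVE1+CX3CR1+ against MHCII+CD11c-, and 1 without the second controls for LYVE1+CX3CR1+ against MHCII+CD11c+. The cause of these shifts was not tested.

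Deviations from the group means were correlated between same-numbered libraries. Within a treatment, those of different subsets correlated at 0.001 to 0.286, not above 0.1 in every pair. Control and IC libraries of the same subset and number correlated at -0.153 to 0.082. Not every library correlated best with its own number, and the labels tie no number to an animal. The numbers were therefore not taken to pair the samples, although within a treatment no same-numbered correlation was negative. With the replicate block, Mmp9 was the 1 member called for LYVE1+CX3CR1+ against MHCII+CD11c- controls (in place of Adam8, adjusted p = 0.0672), for MHCII+CD11c+ against MHCII+CD11c- after IC, for IC in LYVE1+CX3CR1+ cells, for IC in MHCII+CD11c- cells (in place of Mmp19, 0.0583) and for each difference of responses that involves LYVE1+CX3CR1+ cells. It added Mmp9 for MHCII+CD11c+ against MHCII+CD11c- controls (3 called), and Mmp2 and Mmp9 for LYVE1+CX3CR1+ against MHCII+CD11c+ after IC (6 called). With the block within treatment the first comparison called 2, Adam8 and Mmp9, MHCII+CD11c+ against MHCII+CD11c- called 4 in controls and 1 after IC, LYVE1+CX3CR1+ against MHCII+CD11c+ called 5 in each condition, and those differences of responses called 1 each.

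Over all genes the calls ranged across alternatives from 85 to 629 (main 238), 1420 to 2920 (2326) and 550 to 1948 (1323) between control subsets, in the order of the report, from 355 to 1422 (846), 682 to 2846 (1824) and 133 to 1089 (616) after IC, from 30 to 433 (147), 29 to 288 (107) and 0 to 154 (33) for IC within LYVE1+CX3CR1+, MHCII+CD11c- and MHCII+CD11c+ cells, and from 1 to 74 (4), 2 to 98 (5) and 0 to 22 (0) for the differences of responses. The share of calls higher after IC in LYVE1+CX3CR1+ cells was 15.6% and became 26.4% with RLE size factors, in MHCII+CD11c- cells 77.6% and 59.0% in DESeq2, and the share higher in LYVE1+CX3CR1+ cells after IC was 13.5% against 28.3% and 29.5% against 42.7% in DESeq2. RLE size factors moved the median difference of responses of all genes from -0.16 to -0.03 and from -0.21 to -0.04. A level of 0 limits Mmp9 in LYVE1+CX3CR1+ IC libraries only to under 3 counts each.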
